A study of Homo sapiens with 18 samples.

Results

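The expression of 48 genes of DNA replication was examined across 18 RNA sequencing libraries: 9 genes of origin licensing, 13 of the replicative helicase, 8 of the DNA polymerases, 14 of the clamp, clamp loader and fork, and 4 that supply deoxynucleotides. The genes were chosen by name for these roles, with earlier results of these data known, and all 48 were found among the 58302 genes measured. The cells were TPC1, an established papillary thyroid carcinoma line of human origin with wild type Dicer1, and D11, a Dicer1 (+/-) line made from TPC1 with CRISPR-Cas9. Each line was left without transfection (NT), received a negative control siRNA (NC) or received Dicer1 siRNA (siDicer), with siRNA at 5 nM and RNA collected on day 4. Each of the 6 groups held 3 libraries, and the 3 NT with the 3 NC libraries of each line served as its 6 controls. D11 stands for a single edited clone, all cells share the TPC1 background, and the labels do not say whether replicates were separate cultures, so p-values measure the spread between these libraries.

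DNA replication begins when the origin recognition complex, CDC6 and CDT1 load the ring of MCM proteins onto DNA in G1 phase, while geminin (GMNN) blocks reloading later in the cycle. CDC45 and the GINS proteins turn the ring into an active helicase in S phase, polymerase alpha-primase starts each strand, polymerases epsilon and delta extend it, and the clamp PCNA, loaded by replication factor C, holds the polymerases on DNA. Ribonucleotide reductase, thymidylate synthase and thymidine kinase supply the nucleotides, and many of these genes are under the control of E2F factors in cycling cells.

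Values are normalised read counts per 20 M reads, and the libraries held 11.3 to 23.2 M reads (median 15.9 M), so 1 read was worth 0.861 to 1.77 units. The members lay between 169 (POLE2) and 11831 (MCM4) in every library, far from the counting floor of 3 reads. Of the markers of a thyroid follicular cell, PAX8 was at 7361 to 14886, whereas NKX2-1 was at 0 in all 18 libraries and TSHR and SLC5A5 did not exceed 2. Immune and endothelial marker sums overlapped between siDicer and control in both lines. The summed level of 4 epithelial markers was 11980 to 13743 in D11 siDicer against 14344 to 20152 in its controls, with KRT18 at a log2 change of -0.39 (limma adjusted p = 0.0297), whereas in TPC1 the sums overlapped. EPCAM did not exceed 6 and KRT19 did not exceed 8 in any library, so these sums are almost all KRT8 and KRT18. The summed level of 6 fibroblast markers was 385 to 796 in TPC1 siDicer against 186 to 266 in controls, and 151 to 253 against 55 to 133 in D11, with DCN at 0 and COL1A2 and COL3A1 at no more than 2 in all 18 libraries. PDGFRB was called higher in both lines (log2 change 1.82 in TPC1 and 1.60 in D11, limma adjusted p = 0.0493 and 0.00355), and LUM in TPC1 (1.86, limma adjusted p = 0.00126). The part of these markers in the results was not tested. DICER1 itself was at 255, 395 and 246 in the siDicer libraries of TPC1 against 1397 to 2492 in its controls, and at 297, 451 and 277 in those of D11 against 655 to 1536. Replicate 2 thus retained the most DICER1 after siRNA in both lines, at 21.1% (TPC1) and 38.1% (D11) of the mean of the joined controls, against 13.1% to 13.6% and 23.4% to 25.1% in replicates 1 and 3. These controls were unlike in DICER1, which was higher in every NC than in every NT library of a line. It was at 1901 to 2492 in NC against 1397 to 1582 in NT of TPC1, and at 1407 to 1536 against 655 to 1157 in D11. NT replicate 2 of TPC1 stood apart from the other controls before any comparison: it was the lowest of the 6 control libraries for 40 of the 48 members, although its DICER1 was 1510. For 12 of the 18 samples the title gives another group than the description. The groups here follow the descriptions, and those of the titles are treated with the processing alternatives.

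After siDicer the replication genes were shifted downwards in both lines, and no member was called higher. All 48 log2 changes were below 0 in TPC1 and in D11. In TPC1, 7 of 48 members (14.6%) were called lower, meaning a limma adjusted p under 0.05 together with a change of at least 1.5-fold, and 0 were called higher, with 29 members lower at an unadjusted p under 0.05. Over all 18475 genes tested in TPC1, 4.16% were called lower and 3.22% higher, and 17.3% were lower at an unadjusted p under 0.05. In D11, 24 of 48 members (50%) were called lower and 0 higher, against 6.75% lower and 5.26% higher over 18413 genes tested, and 41 members were lower at an unadjusted p under 0.05, against 20.4% of all genes. The median log2 change of the members was -0.40 in TPC1, with a range of -0.91 to -0.05, and -0.58 in D11, with a range of -1.04 to -0.04, whereas the median over all genes was -0.04 in each line. As the libraries are bulk RNA, fewer cells in S phase and less of these RNAs per cell cannot be told apart.

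**Figure D1:**
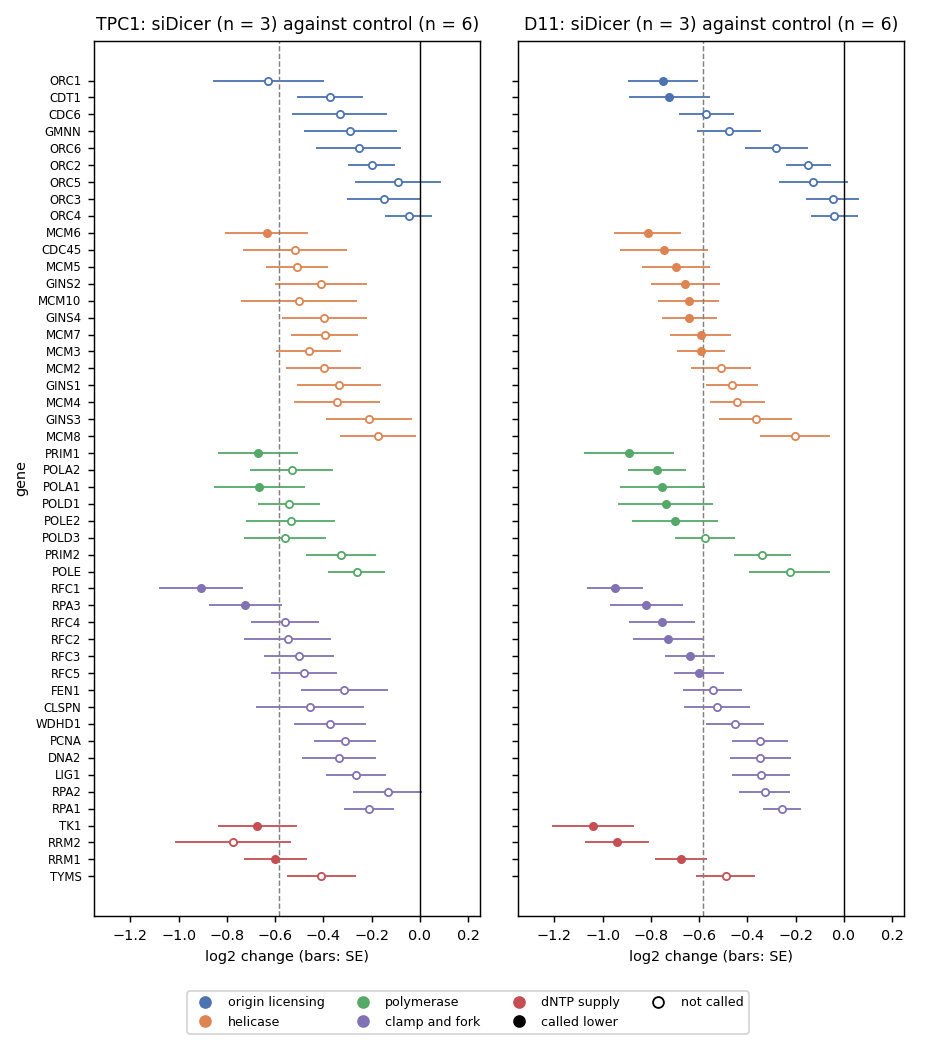
Log2 change of each of the 48 members in siDicer (n = 3) against control (n = 6) in TPC1 (left) and D11 (right), with bars for the SE, colours for the subgroups and filled points for genes called lower. The dashed line marks a fold change of 1.5. All points lie below 0, and 7 are filled in TPC1 and 24 in D11.

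The subgroups differed in the size of the change. In D11 the median log2 change was -0.28 for origin licensing, -0.53 for clamp and fork, -0.59 for helicase, -0.72 for polymerase and -0.81 for dNTP supply. The same order at both ends was seen in TPC1, with -0.25 for origin licensing, -0.40 for helicase, -0.41 for clamp and fork, -0.54 for polymerase and -0.64 for dNTP supply. Called lower in D11 were 2 of 9 licensing, 8 of 13 helicase, 5 of 8 polymerase, 6 of 14 clamp and fork and 3 of 4 dNTP genes. In TPC1 the counts were 0, 1, 2, 2 and 2. The dNTP genes had the lowest subgroup median in 6 of 6 siDicer libraries, and the licensing genes the highest in 5 of 6. The 7 genes called lower in TPC1 were MCM6, POLA1, PRIM1, RFC1, RPA3, RRM1 and TK1, and all 7 were also called lower in D11, where 17 further members passed and 24 passed in neither line. Across the 48 members the changes of the 2 lines, which share no library, correlated at Pearson's r = 0.924 and Spearman's rho = 0.937, and 44 members had the larger fall in D11. These points share libraries within each line, so the correlation is a description.

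**Figure D2:**
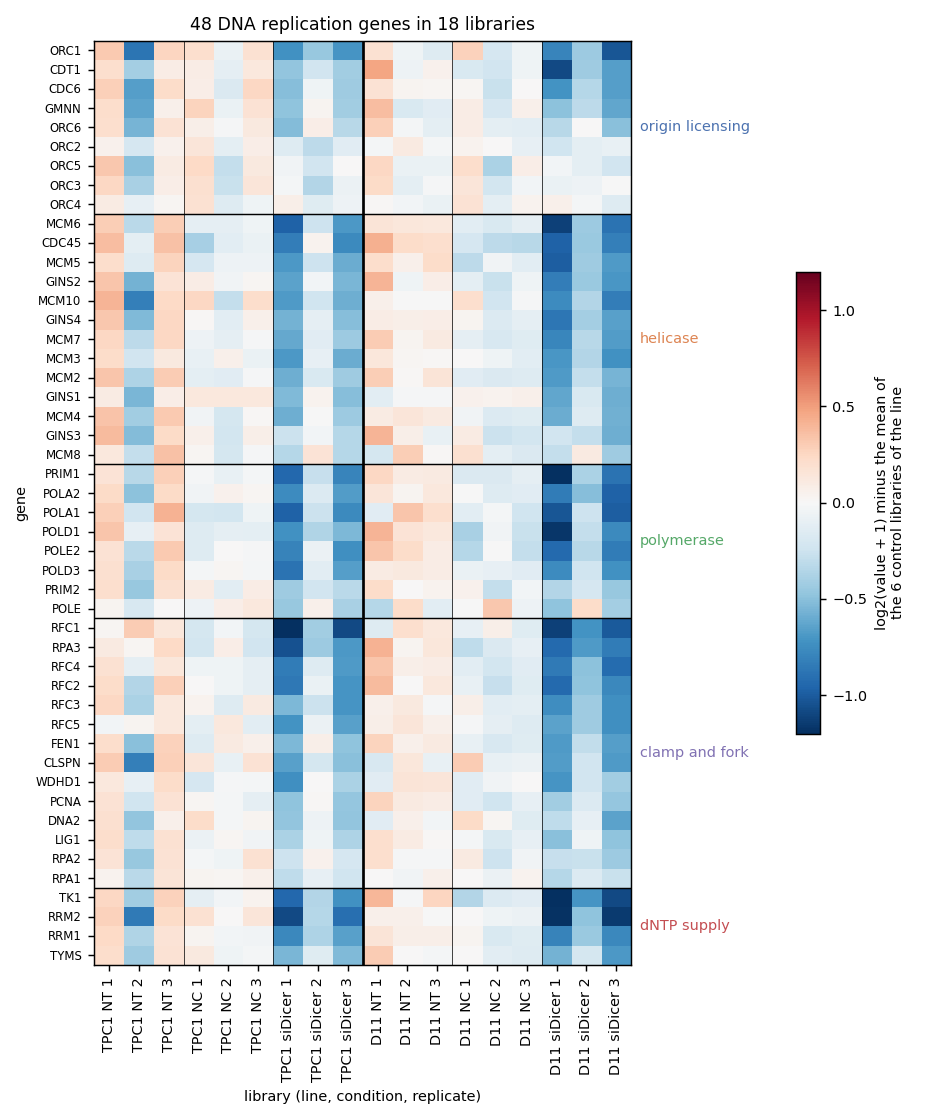
Log2(value + 1) of each member in each of the 18 libraries, relative to the mean of the 6 control libraries of the same line, with rows ordered by subgroup and by the change in D11 and columns by line, condition and replicate. Replicates 1 and 3 of siDicer are the darkest blue in both lines, and NT replicate 2 of TPC1 is blue among the controls.

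Origin licensing genes separated into those that fell in D11 and those that hardly moved. ORC1, the largest subunit of the origin recognition complex, ran from 829 to 1156 (median 921.5) in the D11 controls and was at 550, 707 and 469 in siDicer. All 3 siDicer libraries lay below all 6 controls, and the log2 change was -0.75 ± 0.14 (SE; limma adjusted p = 0.00344). In TPC1, ORC1 was at 478, 579 and 486 in siDicer against 432 to 984 (median 905.5) in controls, with a log2 change of -0.63 ± 0.23 and a limma adjusted p of 0.0902. The low end of these controls was NT replicate 2, and without it the change was -0.80 with an adjusted p of 0.0017. CDC6, the ATPase that joins ORC to load the MCM ring, was at 1131, 1470 and 1178 in D11 siDicer against 1547 to 2100 (median 1891), again with no overlap. Its log2 change of -0.57 ± 0.11 (limma adjusted p = 0.0042) stayed just under the fold change minimum. In TPC1, CDC6 was at 1195, 1642 and 1269 in siDicer against 1082 to 2086 (median 1896), and the groups overlapped (log2 change -0.33 ± 0.20, limma adjusted p = 0.286). CDT1, the MCM loading factor, was the other licensing gene called in D11, at 519 ± 114 (SD, n = 3) against 854 ± 163 (n = 6) in controls (log2 change -0.72, limma adjusted p = 0.00882).

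The other ORC subunits showed little change. ORC4 was at 917, 787 and 834 in TPC1 siDicer against 782 to 988 (median 863) in controls, and at 929, 879 and 798 in D11 siDicer against 822 to 1002 (median 884.5). Within this complex the subunits thus ranged from a gap between groups for ORC1 in D11 to overlapping groups for ORC4 in both lines. The log2 change of ORC4 in D11 was -0.04, with a 95% interval of -0.25 to 0.17, and in TPC1 it was -0.05, with an interval of -0.26 to 0.17. ORC2, ORC3, ORC5 and ORC6 lay at -0.15, -0.05, -0.13 and -0.28 in D11, and none of the 4 reached an adjusted p under 0.05 in either line.

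**Figure D3:**
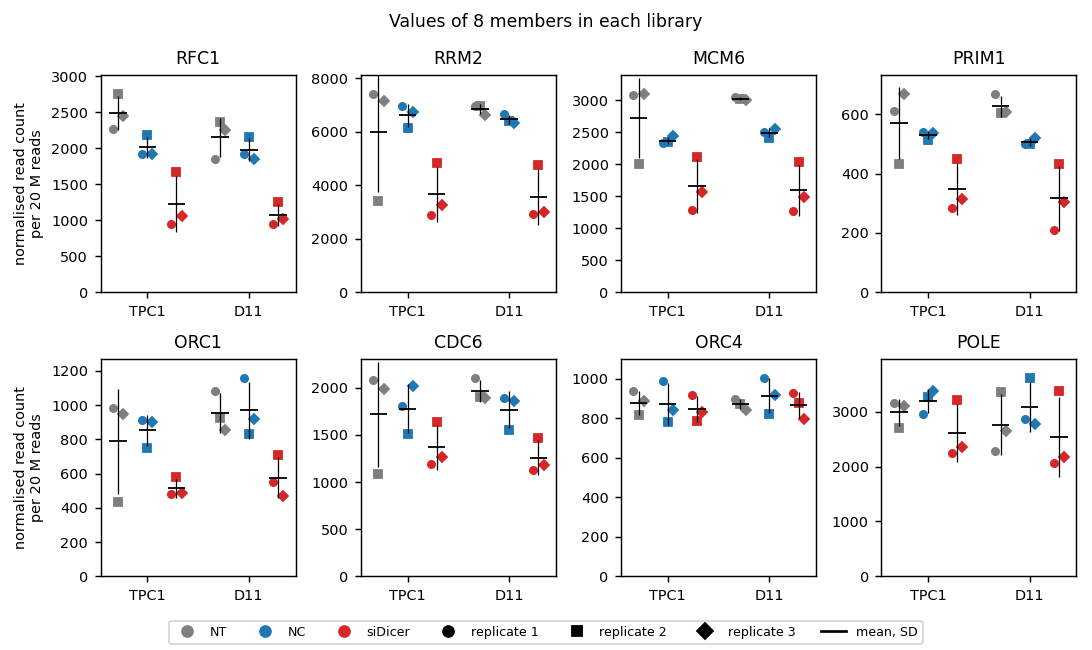
Normalised read count per 20 M reads of 8 members in each library, by line and condition, with colours for NT, NC and siDicer, symbols for replicates 1, 2 and 3, and lines for the mean and SD of 3 libraries. RFC1 in siDicer lies below every control library of its line, whereas the ORC4 groups overlap, and in 7 of the 8 panels siDicer replicate 2 (squares) is the highest of the siDicer libraries in both lines.

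Among the helicase genes, MCM6, a subunit of the MCM ring, changed most. In D11 it was at 1265, 2036 and 1482 in siDicer against 2417 to 3053 (median 2782) in controls, a gap with no overlap (log2 change -0.81 ± 0.14, limma adjusted p = 0.00193). In TPC1 it was at 1287, 2122 and 1564 against 2011 to 3096 (median 2392), and siDicer replicate 2 lay above NT replicate 2. The change in TPC1 was -0.64 ± 0.17 with a limma adjusted p of 0.0326. MCM3, a further subunit of the ring, was at 2438, 3098 and 2381 in D11 siDicer against 3619 to 4339 (median 3974). Its fall of 0.59 ± 0.10 on the log2 scale was the one with the smallest p of the subgroup (limma adjusted p = 0.00173), just past the fold minimum. In TPC1, MCM3 was at 2343, 3530 and 2507 against 3222 to 4416 (median 3762.5), with a log2 change of -0.46 ± 0.14 and a limma adjusted p of 0.0464, under the fold minimum.

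Genes that activate the helicase were lower in D11 as well. CDC45, which joins GINS and the ring in the active helicase, was at 59.0% of the control mean in D11 and MCM10, which assists its assembly, at 64.4%, and both were called lower there. MCM5 and MCM7 of the ring and GINS2 and GINS4 of the GINS complex were also called in D11, with log2 changes of -0.70, -0.59, -0.66 and -0.64. MCM8, a relative of the ring subunits with a role in recombination repair, was at 718, 1021 and 717 in TPC1 siDicer against 747 to 1160 (median 914.5) in controls. In D11 it was at 753, 987 and 680 against 792 to 1125 (median 884). The groups overlapped in both lines, and the log2 change in D11 of -0.20 had a 95% interval of -0.52 to 0.11. MCM2 (-0.51), GINS1 (-0.46), MCM4 (-0.44) and GINS3 (-0.37) were not called in D11, the first 3 of them because the change was under the fold minimum.

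Polymerase alpha-primase, which lays down the RNA-DNA primer, had 3 of its 4 subunits called lower in D11 and 2 in TPC1. PRIM1, its catalytic primase subunit, was at 211, 432 and 305 in D11 siDicer against 499 to 667 (median 562.5) in controls, with no overlap (log2 change -0.89 ± 0.19, limma adjusted p = 0.00542). In TPC1 it was at 284, 449 and 314 against 433 to 667 (median 537.5), and only siDicer replicate 2 reached the range of the controls (-0.67 ± 0.16, limma adjusted p = 0.0224). Exons of PRIM1 overlap those of NACA on the same strand and of HSD17B6 on the other in GENCODE, so its reads are less certain. POLA2, the accessory subunit of polymerase alpha, was at 631, 795 and 575 in D11 siDicer against 1013 to 1248 (median 1143). It had the smallest p of the polymerase genes in D11 (log2 change -0.77 ± 0.12, limma adjusted p = 0.00103). In TPC1, POLA2 was at 623, 940 and 659 against 749 to 1232 (median 1080), with a change of -0.53 ± 0.17 and a limma adjusted p of 0.0629. POLA1, the catalytic subunit, was called lower in both lines, at 63.4% (TPC1) and 60.7% (D11) of the control mean.

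The catalytic subunit of the leading strand polymerase behaved otherwise. POLE was at 2250, 3215 and 2353 in TPC1 siDicer against 2708 to 3370 (median 3132.5) in controls. In D11 it was at 2064, 3377 and 2176 against 2279 to 3609 (median 2825). In both lines siDicer replicate 2 lay well inside the controls while replicates 1 and 3 lay below them. The log2 change was -0.26 ± 0.12 in TPC1 and -0.22 ± 0.17 in D11 (limma adjusted p = 0.154 and 0.367). POLE2, its accessory subunit, was called lower in D11 (-0.70), as was POLD1, the catalytic subunit of polymerase delta (-0.74), whereas POLD3 (-0.57) and the large primase subunit PRIM2 (-0.34) were not.

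RFC1, the large subunit of the clamp loader, had the most marked fall of the clamp and fork genes. In TPC1 it was at 953, 1675 and 1057 in siDicer against 1926 to 2750 (median 2229) in controls. In D11 it was at 948, 1250 and 1024 against 1851 to 2369 (median 2041.5). No siDicer library reached any control library in either line, NT replicate 2 of TPC1 being the highest control here and not the lowest. The log2 change was -0.91 ± 0.17 in TPC1 (limma adjusted p = 0.00836) and -0.95 ± 0.12 in D11 (limma adjusted p = 0.000298). RFC3, a small subunit, was at 747, 936 and 752 in D11 siDicer against 1151 to 1367 (median 1278), with no overlap (-0.64 ± 0.10, limma adjusted p = 0.00149). In TPC1 it was at 778, 944 and 690 against 866 to 1341 (median 1193), and the change of -0.50 ± 0.14 was under the fold minimum (limma adjusted p = 0.0426). All 5 RFC genes were called lower in D11, with RFC4 at -0.75, RFC2 at -0.73 and RFC5 at -0.60.

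The only other call among the clamp and fork genes was RPA3, the smallest subunit of the complex that coats unwound DNA, at -0.72 in TPC1 and -0.82 in D11. Its exons overlap UMAD1 on the other strand. DNA2, a nuclease and helicase of Okazaki fragment processing, was at 676, 898 and 675 in TPC1 siDicer against 674 to 1089 (median 967.5) in controls. In D11 it was at 783, 902 and 619 against 875 to 1130 (median 962). Both lines overlapped, and the changes of -0.33 and -0.35 did not pass (limma adjusted p = 0.171 and 0.0683). The sliding clamp PCNA itself was at 81.4% of its control mean in TPC1 and at 78.4% in D11, and no call was made. FEN1, the flap nuclease (-0.54), the checkpoint mediator CLSPN (-0.53), the fork scaffold WDHD1 (-0.45) and the ligase LIG1 (-0.34) also had values below 0 in D11 without being called.

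The dNTP genes had the lowest median of the 5 subgroups. RRM2, the regulatory subunit of ribonucleotide reductase and the subunit that rises in S phase, was at 2918, 4748 and 3001 in D11 siDicer against 6341 to 6954 (median 6646) in controls. The controls were tightly spaced, and the log2 change was -0.94 ± 0.13 (limma adjusted p = 0.000649). In TPC1 it was at 2883, 4819 and 3268 against 3392 to 7398 (median 6843), where 5 controls were at 6138 or above and NT replicate 2 at 3392. The change in TPC1 was -0.77 ± 0.24 with a limma adjusted p of 0.0539, and without NT replicate 2 it was -0.94 with an adjusted p of 0.00283. RRM1, the catalytic subunit, was at 2194, 2905 and 2394 in TPC1 siDicer against 2921 to 4438 (median 3754), the gap to NT replicate 2 being narrow (-0.60 ± 0.13, limma adjusted p = 0.0145). In D11, RRM1 was at 2244, 2877 and 2298 against 3455 to 4364 (median 4062), with no overlap (-0.68 ± 0.11, limma adjusted p = 0.001235).

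Against the joined controls, TK1, the thymidine salvage kinase of cycling cells, had the largest fall of all members in D11. It stood at 48.6% of the control mean there (log2 change -1.04 ± 0.17, limma adjusted p = 0.00145) and at 62.8% in TPC1 (-0.67 ± 0.16, limma adjusted p = 0.0218). In D11, TK1 was at 1708 to 1982 in NC, against 2160 to 2861 in NT and 861 to 1335 in siDicer. The log2 change of NC against NT was -0.43 ± 0.13 (limma adjusted p = 0.202), and the rank of TK1 against NC alone is not given here. TYMS, thymidylate synthase, was at 2360, 3130 and 2386 in TPC1 siDicer against 2576 to 3990 (median 3571.5) in controls. In D11 it was at 2741, 3500 and 2507 against 3632 to 4995 (median 4019), without overlap. It was not called in either line, the change in D11 of -0.49 ± 0.12 being under the fold minimum (limma adjusted p = 0.0133).

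Every siDicer library lay below every control library for 33 of the 48 members in D11, against 14.1% of all genes tested, and for 7 members in TPC1, against 9.91% of all genes. Of the 24 calls in D11, 11 held whichever of the 9 libraries was left out: MCM6, ORC1, POLA2, PRIM1, RFC1, RFC2, RFC4, RPA3, RRM1, RRM2 and TK1. Without D11 siDicer replicate 1 the count of members called lower was 12, against 5.19% of all genes. In TPC1 it was 0 by limma without siDicer replicate 1 or 3 (14 and 16 members at an unadjusted p under 0.05), against 1.56% and 1.41% of all genes. It was 4 without NT replicate 1 or 3 (3.16% and 3.45% of all genes), 15 without NT replicate 2 (4.87%) and 19 without siDicer replicate 2 (6.83%). The share of all genes called lower in TPC1, 4.16% with no library left out, thus moved with the count of members.

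The size of the fall followed the libraries as well as the genes. The median of the 48 members, relative to the control mean of the line, was -0.60, -0.14 and -0.51 in siDicer replicates 1, 2 and 3 of TPC1 and -0.71, -0.30 and -0.67 in those of D11. Replicate 2 was the highest of the 3 siDicer libraries for 44 members in TPC1 and 43 in D11, and it was also the library with the most DICER1 left. The part of residual DICER1 in this difference was not tested. Among the TPC1 controls the median was -0.38 in NT replicate 2, lower than in siDicer replicate 2, and lay between -0.06 and 0.21 in the other 5. In that library the licensing genes were the lowest subgroup, at -0.50, and 25 of the 48 members were below the mean of the siDicer libraries. The D11 controls spanned -0.16 to 0.19. When only replicates 1 and 3 of each group were used, a setting chosen after the values were seen, 34 members passed as lower in TPC1 and 33 in D11, with median log2 changes of -0.68 and -0.73. Over all genes, 7.94% in TPC1 and 6.15% in D11 were called lower in that setting, against 4.16% and 6.75% with all libraries.

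**Figure D4:**
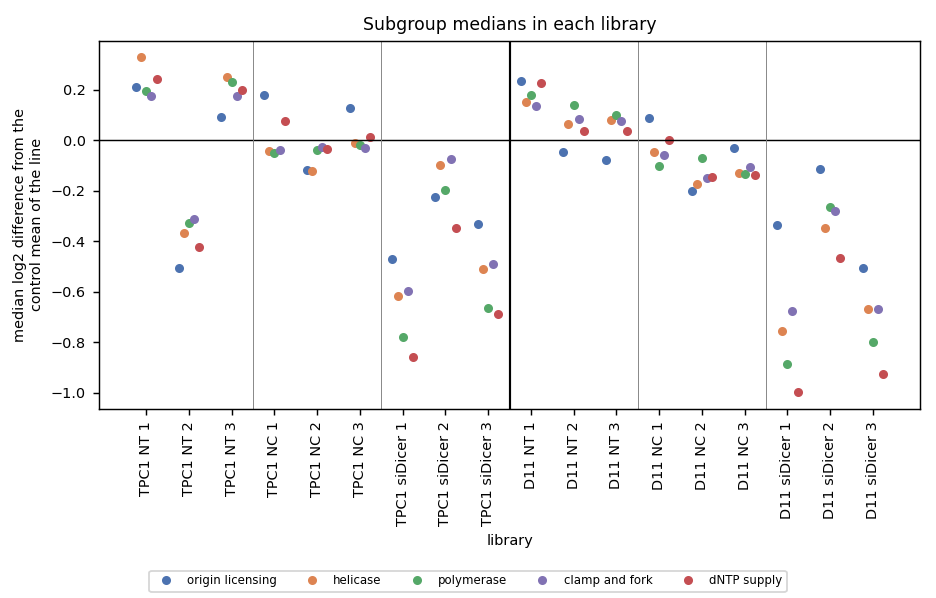
Median log2 difference from the control mean of the line for the members of each subgroup, in each of the 18 libraries. In siDicer replicates 1 and 3 the dNTP genes (red) are lowest and the licensing genes (blue) highest, whereas in NT replicate 2 of TPC1 the licensing genes are lowest.

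In some complexes the subunits did not all fall in proportion. For each pair of subunits within 9 complexes, the log2 ratio was compared between siDicer and control in both lines together, with an exact permutation test of the libraries within each line (7056 assignments, two-sided, smallest possible p 0.000142). This test was chosen after the values of the members had been seen. Of 58 pairs, 22 passed a Benjamini-Hochberg adjusted p under 0.05. With siDicer reassigned only among the libraries of a line that share a replicate number (729 assignments, smallest possible p 0.00137), 23 passed, 21 of them among the 22. ORC1 fell relative to each of the other 5 ORC subunits, by 0.65 on the log2 scale against ORC4 (exact permutation adjusted p = 0.0048) and by 0.42 against ORC6 (exact permutation adjusted p = 0.00235). In the MCM ring, MCM6 fell against MCM2, MCM3, MCM4 and MCM7, with a ratio change of -0.33 against MCM4 (exact permutation adjusted p = 0.00206), and MCM5 fell against MCM2 and MCM4. RPA3 fell against RPA1 and RPA2 (-0.54 for each, exact permutation adjusted p = 0.00206 and 0.00308), whereas the ratio of RPA1 to RPA2 changed by 0.00.

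In the clamp loader, RFC1 fell against RFC3, RFC4 and RFC5, with a ratio change of -0.39 against RFC5 (exact permutation adjusted p = 0.00206), and no pair among the 4 small subunits passed. POLA1, POLA2 and PRIM1 each fell against PRIM2, by 0.38, 0.32 and 0.45 on the log2 scale. POLE2 fell against POLE (-0.37, exact permutation adjusted p = 0.0306, and 0.0573 within replicate numbers, the 1 pair lost there), and GINS2 and GINS4 fell against GINS3 (-0.25 and -0.23). The ratio of RRM2 to RRM1 changed by -0.22 and did not pass (exact permutation adjusted p = 0.0608), nor did that of POLD1 to POLD3 (-0.07, exact permutation adjusted p = 0.546). With NT alone as the control 13 pairs passed, as they did without siDicer replicate 1 of either line.

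Per kb of the canonical transcript, the subunits also differed in level. In the D11 controls, MCM4 was the most abundant of the ring at 2530 ± 236 normalised reads per kb (SD, n = 6) and MCM6 the least at 735 ± 78.5, within the spread of MCM2 at 860 ± 117. MCM6 was at 425 ± 106 per kb (n = 3) in siDicer. RPA3 was at 245 ± 45.2 per kb in controls, against 803 ± 28.5 for RPA1 and 794 ± 82.5 for RPA2, whose levels do not differ beyond their spread, and it was at 137 ± 12 in siDicer. RFC1 was the least abundant clamp loader subunit, at 425 ± 45.3 per kb in controls and 221 ± 32.3 in siDicer. The subunits with the largest fall in these 3 complexes thus also had the lowest mean per kb in the D11 controls. In the TPC1 controls RFC1, at 462 ± 65.2, was within the spread of RFC3 at 495 ± 74.4. MCM6, at 680 ± 118, was within that of MCM2 at 786 ± 150. In ORC this did not hold, ORC6 being at 558.5 ± 65.5, ORC3 at 330 ± 38.2, ORC1 at 308 ± 41.7 and ORC4 at 136 ± 9.78, with ORC3 and ORC1 within their spread of each other. Nor did it hold in polymerase alpha-primase, where PRIM1 fell most and was the most abundant at 398 ± 49.0. RRM2 fell more than RRM1 and was at 2043 ± 80.2 against 1253 ± 113. GINS3 fell least of the GINS genes and was the lowest at 227 ± 40.4, within the spread of GINS4 at 248 ± 17.7. POLE2 fell more than POLE and was the less abundant, at 194 ± 35.6 against 374 ± 62.0. POLD1 and POLD3 were within their spread of each other.

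**Figure D5:**
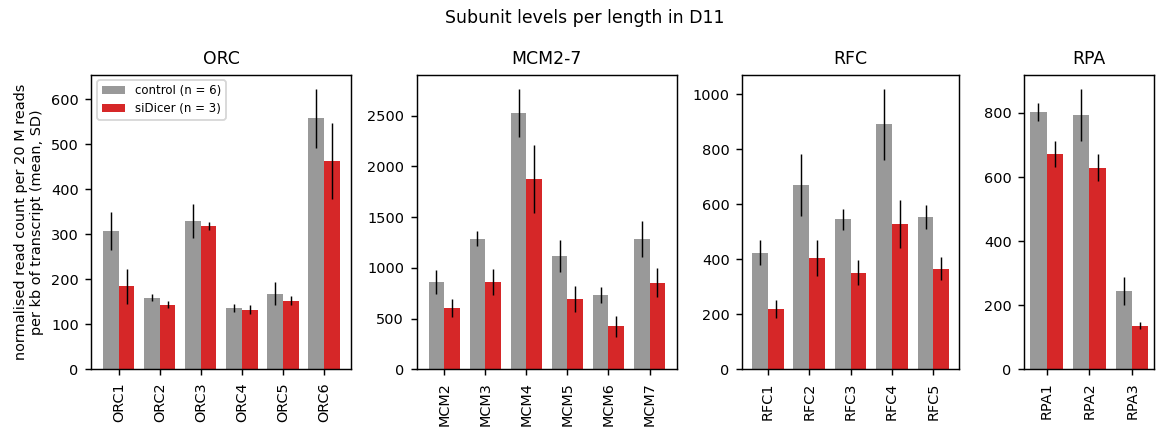
Mean normalised read count per 20 M reads per kb of canonical transcript for the subunits of ORC, the MCM ring, RFC and RPA in D11, in control (grey, n = 6) and siDicer (red, n = 3), with bars for the SD. MCM6, RFC1 and RPA3 are the shortest grey bars of their complexes, and ORC1 is the only ORC subunit whose bars are well apart.

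The transfection and the clone had no call among the members. In NC against NT, 0 of 48 members were called in TPC1 by limma (2 lower at an unadjusted p under 0.05, against 5.28% of all genes), where 0.0777% of all genes were called lower and 0.0333% higher. In D11, 0 members were called in NC against NT, where 0.2% of all genes were called lower and 0.15% higher, but 15 were lower at an unadjusted p under 0.05, against 5.72% of all genes. In this comparison 42 of the 48 changes were below 0, against 47.3% of all genes, with a median of -0.19. The largest was CDC45 at -0.56 ± 0.12 (limma adjusted p = 0.0957), at 556 ± 25.9 in NC against 824 ± 71.8 in NT (SD, n = 3). In TPC1 the median of the members between NC and NT was -0.03. With NC alone as the control, 10 members were called lower after siDicer in D11 and 3 in TPC1, against 4.93% and 3.09% of all genes. With NT alone the TPC1 count was also 3, against 2.74% of all genes.

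Between D11 and TPC1 controls, 0 members were called by limma, where 0.872% of all genes were called lower and 0.144% higher in D11, although 8 members were higher at an unadjusted p under 0.05, against 3.85% of all genes. The median log2 difference was 0.12, with CDT1 the furthest at 0.43 ± 0.12 (limma adjusted p = 0.177). DICER1 was lower in D11 in the same comparison (-0.68, limma adjusted p = 0.00561). The change after siDicer was below that of TPC1 for 44 of 48 members when the difference between the lines was fitted over 18 libraries, with a median of -0.13. No member was called in that interaction, nor any of the 19181 genes tested (0% lower and 0% higher by limma, with 133 genes but 0 members at an unadjusted p under 0.05), so the larger fall in D11 was not shown for any gene.

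Further replication genes were listed by role beside the 48, and their counts stand against 4.16% of all genes called lower in TPC1 and 6.75% in D11. Of 11 further genes of origin firing, 1 (9.09%) was called lower in each line, DBF4B, an activator of the kinase CDC7 (-0.74 in TPC1 and -0.78 in D11, limma adjusted p = 0.00332 and 0.00121), while CDC7 itself (-0.54) and CDK2 (-0.55) in D11 were under the fold minimum. Of 25 further fork genes, D11 had 4 (16%) called lower and TPC1 had 1 (4%). SUPT16H, a subunit of the histone chaperone FACT, was the one called in both (-0.72 in TPC1 and -0.75 in D11), and its partner SSRP1 was at -0.58 in D11, under the fold minimum. RNASEH2A, which removes ribonucleotides, was at -0.84 in D11, CHAF1B of the chromatin assembly factor at -0.78 and TIPIN of the fork protection complex at -0.61. Of 24 further nucleotide genes, 0 were called in TPC1 by limma (3 at an adjusted p under 0.05) and 2 (8.33%) lower in D11, a share near that of all genes, the thymidylate kinase DTYMK (-0.74) and the nucleoside diphosphate kinase NME1 (-0.59). GMPS (-0.47) and PAICS (-0.51) of purine synthesis did not pass the fold minimum in D11. None of these 60 genes was called higher in either line by limma, and the median log2 change in D11 was -0.42 for origin firing, -0.50 for fork and -0.29 for nucleotide genes, against -0.58 for the 48 members.

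The promoters of the members, taken from RefSeq (GRCh38.p14) as 250 bases before to 50 after the start, were searched for 4 forms of the E2F site, TTTCCCGC, TTTCGCGC, TTTGCCGC and TTTGGCGC, on both strands, with overlapping matches counted. Of the 41 members with a promoter there, 20 (48.8%) held at least 1 match, against 3.33% of 27305 promoters. The match was most frequent in helicase genes (8 of 10) and was held by 4 of 7 polymerase, 4 of 11 clamp and fork, 3 of 9 licensing and 1 of 4 dNTP genes. Below, 1 stretch of each subgroup is shown in the direction of transcription, with the matches in capitals.
CDT1 (chr16:88803729-88803788, + strand): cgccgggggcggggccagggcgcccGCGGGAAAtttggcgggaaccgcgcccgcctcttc
MCM6 (chr2:135876502-135876615, - strand): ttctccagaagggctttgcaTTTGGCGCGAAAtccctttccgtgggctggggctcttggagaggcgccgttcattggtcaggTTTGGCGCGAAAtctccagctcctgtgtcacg
POLA1 (chrX:24693761-24693820, + strand): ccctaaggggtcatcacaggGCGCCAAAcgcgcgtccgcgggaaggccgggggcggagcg
PCNA (chr20:5126642-5126701, - strand): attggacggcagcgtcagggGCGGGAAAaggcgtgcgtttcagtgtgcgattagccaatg
TYMS (chr18:657593-657652, + strand): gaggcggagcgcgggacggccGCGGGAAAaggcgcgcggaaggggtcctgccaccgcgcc
The stretch of MCM6, the helicase gene with the largest fall, holds 4 matches, as TTTGGCGC and TTTCGCGC overlap on opposite strands at 2 places. Exons of TYMS overlap those of TYMSOS and ENOSF1 on the other strand, and whether its stretch does was not examined.

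The changes after siDicer of members with and without an E2F match overlapped, and the difference between the 2 sets was not tested. The 20 members with a match had a median log2 change of -0.55 in D11 (9 called lower) and -0.40 in TPC1 (2 called), and the 21 without had -0.64 (12 called) and -0.50 (4 called). In D11 the changes ran from -0.81 (MCM6) to -0.05 (ORC3) with a match and from -1.04 (TK1) to -0.04 (ORC4) without. In TPC1 they ran from -0.67 to -0.15 with a match and from -0.91 to -0.05 without. CCAAT was held by 23 of the 41 members (56.1%) against 35.7% of all promoters. TTTGAA or TTTAAA, the letters of the CHR element of late cell cycle genes, were found in 3 of the 41 members (7.32%) against 24.3% of all promoters, and these 3 were the dNTP genes RRM1, RRM2 and TK1. TATAAA was found in 2 members (4.88%), GINS3 and TK1, against 12% of all promoters. These matches describe the letters only.

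By position, the members lay on 19 chromosomes of GRCh38 (GENCODE release 44). RFC1 (ENSG00000035928) is at chr4:39287456-39366375, TK1 (ENSG00000167900) at chr17:78174091-78187233, RRM2 (ENSG00000171848) at chr2:10120698-10211725 and MCM6 (ENSG00000076003) at chr2:135839626-135876443, and no exon of these 4 genes overlaps another gene. Exons of 23 of the 48 members overlap those of another gene, 19 of them on the opposite strand and 7 on the same, including RPA3, PRIM1, RRM1 (RRM1-AS1), RFC4 (EIF4A2), TYMS and ORC4 (ACVR2A and MBD5), and for these the values depend on how the overlap was counted.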

How the data were processed

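Messenger RNA was sequenced from stranded poly-A selected libraries. The authors aligned the reads to GRCh38 with STAR 2.5.3a and counted them per gene with HTSeq 0.9.1, and the deposited values are a score, the counts scaled to 20 M reads per library and rounded up to whole numbers. Whether HTSeq counted by strand is not given in the sources used here. The value of 1 read was recovered from the steps between values, and 99.77% to 99.95% of values came back whole in 16 libraries.

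Values were taken as log2(value + 1), which understates the change of low genes, and genes that reached 10 in 3 or more libraries of a comparison were tested with limma 3.58.1 (R 4.3.3, trend), with Benjamini-Hochberg adjustment over all genes tested. The planned test for counts was not used, as the values are scaled. A call needed a 1.5-fold change or more together with an adjusted p under 0.05. Comparisons were siDicer against NT and NC joined in each line, NC against NT, D11 against TPC1 controls with NC or NT as a covariate, and the interaction over 18 libraries. The fits were tested on simulated data.

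The members, gene lists and subgroups were chosen with earlier results of these data known. Values are given by library for the 2 members with the smallest and the 1 with the largest p in D11 in each subgroup, further lists by their 3 smallest p in D11, and other genes named were chosen after their values were seen. Correlations of deviations from the group means exceeded 0.1 in 9 of 9 D11 pairs with the same replicate number (0.108 to 0.504). In TPC1 they did so in 8 of 9 such pairs (0.0994 to 0.542). Pairs with different numbers exceeded 0.1 in 3 of 18 in each line. The numbers thus go with a shared deviation in both lines. The fits reported carry no block for the replicate number, and the blocked fit is an alternative. No replicate pair was identical. Groups from the sample titles, other scalings, filters, pseudocounts, a replicate block and left-out libraries were run as alternatives.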

Additional observations from a re-analysis of the deposited data

Results flagged for a closer look

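In 98 groups of 6 control libraries (48 members and DICER1 in each line), the highest or lowest library was compared with the others by Dixon's ratio at its 95% critical value, and 6 stood out. Chance flags about 1 in 20 groups. In TPC1, NT replicate 2 was the lowest control by a wide gap for ORC6 (577, next 841), GINS1 (918, next 1416), RPA1 (3066, next 3898) and RRM2 (3392, next 6138). In D11, NT replicate 1 was the highest control for CDT1 (1168, next 874) and TYMS (4995, next 4077).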

How the results depend on the processing

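Where the fall of the replication genes rested on a setting, the cause was not tested. Each result was recomputed under other pseudocounts, filters, scalings, controls, blocks and groupings, and with each library left out. The D11 count of 24 members called lower was within 1.5 times of itself under the pseudocounts, filters, scalings, the fit of all 18 libraries, NT alone and voom on recovered reads. It was 10 with NC alone, where 4.93% of all genes were called lower. It was 12 to 31 with a library left out (4.27% to 7.44% of all genes), and the D11 median then ran from -0.70 to -0.50. The TPC1 count of 7 was 13 with no fold change minimum (7.94% of all genes), 3 with NT alone (2.74%) and 3 with NC alone (3.09%). It was 0 to 19 with a library left out (1.41% to 6.83% of all genes), with a median of -0.55 to -0.32. The within-complex pairs numbered 22, and 13 with NT alone and 13 to 25 with a library left out. With replicates 1 and 3 of each group, chosen after seeing the data, the counts were 34 in TPC1, with a median of -0.68, and 33 in D11. The shares of all genes called lower were then 7.94% and 6.15%. In that setting CDC45 was the 1 member called lower in NC against NT in TPC1 (-0.60), against 0.995% of all genes. With the replicate block the members called lower numbered 7 (TPC1) and 24 (D11), against 5.49% and 7.49% of all genes. The calls of every member and the medians were those without the block in all 6 comparisons, and 23 within-complex pairs passed. Members at an unadjusted p under 0.05 numbered 4 in place of 2 for NC against NT in TPC1 and 17 in place of 15 in D11. ORC4 ran from -0.11 to 0.0044 in TPC1, the latter without siDicer replicate 2, and from -0.089 to 0.020 in D11, the latter without siDicer replicate 3.

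With groups from the titles, under which DICER1 does not follow the groups, 0 members and 0 of all genes tested were called in either line by limma, with 0 members at an unadjusted p under 0.05. The median log2 change of the members was then 0.077 in TPC1, -0.080 in D11 and 0.044 for NC against NT in D11. The TPC1 log2 changes that turned above 0 under the titles were ORC1 0.18, ORC2 0.10, ORC3 0.15, ORC5 0.16, ORC6 0.11, CDC6 0.18, CDT1 0.086, GMNN 0.055, MCM2 0.13, MCM4 0.12, MCM5 0.064, MCM6 0.10, MCM7 0.10, MCM8 0.083, MCM10 0.18, CDC45 0.014, GINS1 0.012, GINS2 0.023, GINS3 0.086, GINS4 0.10, POLA1 0.13, POLA2 0.054, PRIM1 0.070, PRIM2 0.14, POLE 0.0035, POLE2 0.049, POLD1 0.022, POLD3 0.052, RFC2 0.0097, RFC3 0.016, RPA1 0.10, RPA2 0.15, RPA3 0.023, FEN1 0.084, LIG1 0.018, WDHD1 0.091, CLSPN 0.21, RRM1 0.036, RRM2 0.12, TYMS 0.012 and TK1 0.13. Those in D11 were CDT1 0.034, MCM5 0.053, PRIM1 0.00404, RPA1 0.049, RPA3 0.0085, WDHD1 0.092 and TK1 0.041.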
